A study of Mus musculus with 12 samples.

Results

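Expression of 9 genes that write, erase or read DNA methylation (Dnmt1, Dnmt3a, Dnmt3b, Uhrf1, Tet1, Tet2, Tet3, Mbd1 and Mbd2) was examined in mouse medulloblastomas (MBs), a malignant tumor of the cerebellum, and in normal cerebellar samples. The genes were chosen by their function, with earlier results of these data known, so shares set against all genes are descriptive. All 9 of them were measured among the 18193 genes represented on the array. A gene's value was the mean log2 signal of the probe sets (groups of short probes for one transcript region) that matched this gene alone, leaving out those with the suffixes _s_at and _x_at, which can also bind related transcripts. The genes had 26 such probe sets, of which 22 were averaged. The data comprised 12 arrays of 12 mice. There were 8 MBs (MB_630, MB_706, MB_794, MB_1187, MB_1197, MB_1206, MB_1207 and MB_1224) from p53-/- animals in which Xrcc4, a ligation factor of classical non-homologous end joining, had been inactivated by Nestin-cre. Nestin-cre is active in neural progenitors, so a conditional Xrcc4 allele stays intact in cells outside that lineage. In 6 of these mice one Xrcc4 allele was conditional and the other null (c/-), and in MB_706 and MB_1206 both alleles were conditional (c/c). The normal samples (CGNP and WC) were cerebellar granule progenitors of 2 mice (CGNP_2698 and CGNP_2705) and whole cerebellum of 2 mice (WC_2646 and WC_2647). These were described as matched to the tumors in age and genotype, but their Xrcc4 alleles and the ages of all animals were not stated. The labels name the MB arrays as tumor tissue, whereas the study's methods list 6 of the mice as sources of cultured MB cells, so the exact material on the array is not settled.

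DNA methylation in mammals sits mainly on the cytosine of CG dinucleotides (CpGs). Dnmt3a and Dnmt3b place the mark on unmethylated DNA, while Dnmt1 copies it to the new strand after replication, guided by Uhrf1, which binds hemimethylated CpGs. The Tet dioxygenases oxidize methylcytosine as a step toward its removal, and Mbd1 and Mbd2 bind methylated CpGs and recruit repressor complexes. In the cerebellum, granule progenitors divide in the external granule layer before they mature into granule neurons, and MBs of the Sonic hedgehog type arise from this lineage.

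Promoter sequences (RefSeq, GRCm38.p6) were available for 7 of the 9 genes, as 12 windows of 300 bases around annotated start sites. They are given here for the maintenance pair Dnmt1 and Uhrf1 and for Dnmt3b, the genes with the most pronounced rise among the writers and their cofactor. The stretches below lie upstream of the annotated gene, with every CpG in capitals. They cover chr9:20959889-20960138 on the minus strand (Dnmt1, the most distal of its start sites), chr2:153649199-153649410 on the plus strand (Dnmt3b) and chr17:56303087-56303336 on the plus strand (Uhrf1).
Dnmt1: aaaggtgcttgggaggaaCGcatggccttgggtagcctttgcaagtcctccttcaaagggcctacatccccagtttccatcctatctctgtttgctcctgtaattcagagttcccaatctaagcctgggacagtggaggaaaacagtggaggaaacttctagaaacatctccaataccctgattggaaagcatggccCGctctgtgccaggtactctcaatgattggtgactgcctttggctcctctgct
Dnmt3b: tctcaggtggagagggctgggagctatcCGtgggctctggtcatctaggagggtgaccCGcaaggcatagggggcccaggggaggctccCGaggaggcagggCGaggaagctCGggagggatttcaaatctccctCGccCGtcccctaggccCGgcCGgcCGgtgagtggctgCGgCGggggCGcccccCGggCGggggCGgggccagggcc
Uhrf1: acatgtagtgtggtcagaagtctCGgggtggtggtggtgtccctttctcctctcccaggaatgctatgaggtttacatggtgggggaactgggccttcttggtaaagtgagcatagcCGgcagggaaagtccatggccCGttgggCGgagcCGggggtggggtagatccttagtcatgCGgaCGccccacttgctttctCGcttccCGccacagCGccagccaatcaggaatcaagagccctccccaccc
The Dnmt1 stretch held 2 CpGs in 250 bases, the Dnmt3b stretch 16 in 212 bases and the Uhrf1 stretch 10 in 250 bases.

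Over whole windows of 300 bases, the number of CpGs ranged from 2 at the distal Dnmt1 start site to 57 at the Tet2 start site, against a median of 7 (quartiles 3 and 20) in all 32851 windows. The other Dnmt1 windows held 12 and 33 CpGs, the Uhrf1 windows 12 and 33, and the Dnmt3b window 30. The Dnmt3a windows held 46, 47 and 18 CpGs, the Tet1 window 17 and the Tet3 window 22. The windows were also searched on both strands for the E2F motif, recognized by factors that regulate genes of DNA replication, spelled as TTTCGCGC, TTTGGCGC, TTTCCCGC or TTTGCCGC. A match was present in 744 of all windows (2.26%) and in 2 of the 12 windows of these genes, one of Dnmt1 and one of Uhrf1. The matches are shown in capitals in 30 bases of sequence each, at chr9:20952824-20952853 and chr9:20952574-20952603 (both on the minus strand, Dnmt1) and at chr17:56304117-56304146 (plus strand, Uhrf1).
Dnmt1, first match: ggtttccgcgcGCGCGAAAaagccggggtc
Dnmt1, second match: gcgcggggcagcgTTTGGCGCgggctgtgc
Uhrf1: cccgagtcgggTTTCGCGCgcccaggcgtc
The first Dnmt1 match reads on the opposite strand. These matches describe the letters only, and binding of any factor was not measured here.

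Before the comparisons, the labels were checked against the data. Xrcc4, the targeted gene, had a log2 level of 2.93 ± 0.39 in the MBs, 3.88 ± 0.43 in CGNP and 4.29 ± 0.06 in WC (SD, n = 8, 2 and 2), with a log2 difference of -1.16 between MBs and the 4 normal samples (limma, adjusted p = 0.00193). Whether its probe sets lie in the deleted part is not known. Atoh1, a defining marker of granule progenitors, had a mean log2 level of 11.95 in the MBs, 5.95 in CGNP and 2.76 in WC, whereas Gli1, a target of Sonic hedgehog signaling, was at 9.10, 2.30 and 3.50 in the same order. Of the 6 granule progenitor markers listed, 3 were higher in the MBs than in the normal samples (Atoh1, Gli1 and Barhl1), Zic1 was lower (-0.33, adjusted p = 0.0087), and Pax6 (-0.43) and Ptch1 (0.88) did not pass. The mean level of 5 mesenchymal markers was 2.96 to 6.68 in the MBs, 7.30 to 7.58 in CGNP and 4.23 to 4.37 in WC, and 3 of the 5 were higher in CGNP than in WC while 5 of 5 were lower in MBs than in CGNP (limma, adjusted p under 0.05). The mean level of 9 microglial markers was 6.05 to 7.43 in the MBs, 3.50 to 4.44 in CGNP and 5.25 to 5.36 in WC, with 7 of the 9 higher in MBs than in the normal samples. That of 8 granule neuron markers was 5.66 to 8.04, 7.45 to 7.63 and 10.81 to 10.86. For 7 astroglial markers it was 5.06 to 7.42, 7.73 to 7.79 and 9.08 to 9.18. For 4 inhibitory neuron markers it was 2.53 to 4.06, 5.59 to 5.67 and 7.19 to 7.23. For Purkinje cell and oligodendrocyte markers CGNP overlapped the MBs, and for endothelial markers CGNP lay below them. The share of these cell populations in the results below was not tested, and fewer cells of a type cannot be told apart from less RNA per cell in bulk samples. MB_706 stood apart in RNA integrity, where the control transcripts had a 3' minus 5' log2 signal of 2.93, while this signal ranged between 0.56 and 0.82 for the remaining tumors and between 0.15 and 0.52 for normal brain. Arrays correlated with r = 0.97 to 0.99 among MBs, 0.91 to 0.93 between MBs and CGNP, and 0.86 to 0.90 between MBs and WC.

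The MBs had higher levels of most of these genes than normal brain. Against the 4 normal samples taken as one group, 6 of the 9 genes (66.7%) were higher in the MBs at an adjusted p under 0.05 (Dnmt1, Dnmt3b, Uhrf1, Tet1, Tet2 and Mbd1), compared with 20% of all 18193 genes. By limma 0 of 9 were lower, also at an unadjusted p under 0.05 and by the methods' t-test (unpaired, run with unequal and with equal variances, adjusted), compared with 16.4% of all genes. The count of higher genes was also 6 of 9 against CGNP alone (18.7% of all genes) and against WC alone (22.2% of all genes), with 0 of 9 lower in both by the same tests (18.6% and 21.8% of all genes), although the set differed, since Dnmt3a passed only against CGNP and Mbd1 did not. Dnmt1, Dnmt3b, Uhrf1, Tet1 and Tet2 passed in all 3 comparisons, and for each of these 5 genes the lowest MB lay above the highest normal sample, a pattern found in 15.5% of all genes. The 3 comparisons use the same 8 MBs and partly the same normal samples. The median log2 difference of the 9 genes was 0.45 against normal brain, 0.46 against CGNP and 0.44 against WC, with a median of 0.0 over all genes in each. Between CGNP and WC, 1 of 9 genes was higher (Uhrf1), against 14.9% of all genes. In that comparison 0 of 9 were lower by limma, also at an unadjusted p under 0.05 and by both forms of the methods' t-test after adjustment, against 13.6% of all genes.

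**Figure D1:**
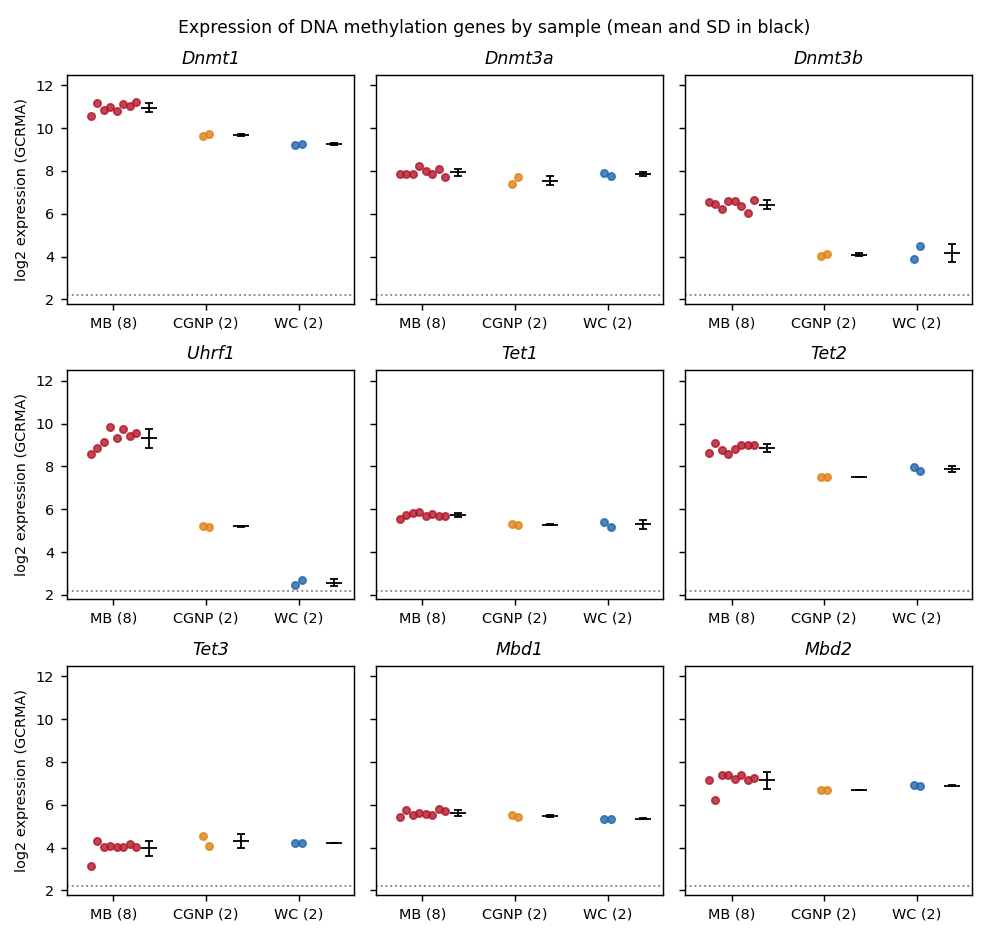
Log2 expression (vertical axis, GCRMA values) of each of the 9 genes in the 8 MBs, 2 CGNP and 2 WC samples. Points are samples, black marks are the mean and SD of a group, and the dotted line is the floor of the scale at 2.20. Uhrf1 lies between 8.60 and 9.85 in the MBs, above both CGNP samples (5.22 and 5.18) and both WC samples (2.46 and 2.68).

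Among the genes that maintain methylation, Uhrf1 showed the largest difference of the 9 genes in each of these 4 comparisons. Its log2 level ranged between 8.60 and 9.85 in the MBs (median 9.37), and was 5.22 and 5.18 in CGNP and 2.46 and 2.68 in WC. The 3 groups did not overlap, and the order was MB, CGNP, WC. The log2 difference between MBs and CGNP was 4.11 ± 0.29 (SE), a 17.3-fold higher signal (limma, adjusted p = 3.72e-06). Against WC it was at least 6.74 (adjusted p = 5.62e-08) and against the 4 normal samples at least 5.43 (adjusted p = 1.97e-05), because one of the probe sets, 1415811_at, lay at the floor of 2.20 in both WC samples. The difference between CGNP and WC was likewise at least 2.63 (adjusted p = 0.000493). The probe set 1415810_at gave a log2 level of 10.88 to 11.82 in the MBs, 6.91 and 6.90 in CGNP and 2.71 and 3.16 in WC. With 1415811_at the MBs lay between 5.87 and 7.90, with MB_706 as the lowest, and CGNP was at 3.53 and 3.46.

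Dnmt1, the maintenance methyltransferase, had a log2 level of 10.54 to 11.20 in the MBs (median 11.01), 9.64 and 9.72 in CGNP, and 9.21 and 9.27 in WC. All MBs were above all normal samples. The log2 difference was 1.28 ± 0.15 (SE) against CGNP, a 2.42-fold higher signal (adjusted p = 9.55e-05), and 1.72 ± 0.15 against WC, a 3.29-fold higher signal (adjusted p = 7.85e-06). The CGNP samples were above the WC samples by 0.44 (95% interval 0.02 to 0.87), and this difference did not pass after adjustment (adjusted p = 0.123). Without MB_630, the tumor with the lowest Dnmt1 level, this difference stayed at 0.44 and its adjusted p was 0.0317. The fit estimates the spread from all 3 groups, so this change reflects the spread among the MBs and not the CGNP or WC values. The 2 probe sets with the suffix _x_at, which were not averaged, gave log2 differences of 1.09 and 1.21 against CGNP and of 1.69 and 1.82 against WC.

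Of the de novo methyltransferases, Dnmt3b had a log2 level of 6.03 to 6.63 in the MBs (median 6.52), 4.04 and 4.14 in CGNP, and 3.88 and 4.48 in WC. The MBs were again above all normal samples, and the normal groups overlapped. The signal was 5.07-fold higher than in CGNP (log2 difference 2.34 ± 0.18 SE, adjusted p = 6.56e-06) and 4.76-fold higher than in WC (2.25 ± 0.18, adjusted p = 4.92e-06). The difference between CGNP and WC was -0.09, with a 95% interval of -0.61 to 0.43. Both Dnmt3b probe sets were higher in the MBs, by 2.07 and 2.61 against CGNP and by 2.14 and 2.36 against WC. Against WC, Dnmt3b was called by the methods' t-test with equal variances and not by that with unequal variances (adjusted p = 0.134).

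Dnmt3a had a log2 level of 7.72 to 8.24 in the MBs (median 7.87), 7.39 and 7.70 in CGNP, and 7.91 and 7.78 in WC. The MBs were above CGNP by 0.40 ± 0.13 (SE, adjusted p = 0.0328) and overlapped with WC (0.09, 95% interval -0.19 to 0.37, adjusted p = 0.729). Its 5 probe sets disagreed in direction. In 1423064_at the MBs were higher than the normal samples by 0.88 (adjusted p = 0.00945) and in 1423065_at by 0.62 (adjusted p = 0.0051), while in 1460324_at they were lower, with a difference of -0.40 (adjusted p = 0.034). Against WC, 1423063_at was also lower in the MBs (-0.55, adjusted p = 0.0323), as was 1460324_at (-0.62, adjusted p = 0.00341). The last of the 5, 1423066_at, was not called in any comparison. The direction for Dnmt3a thus depended on the probe set, and no isoform is assigned to these probe sets in the annotation used here.

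**Figure D2:**
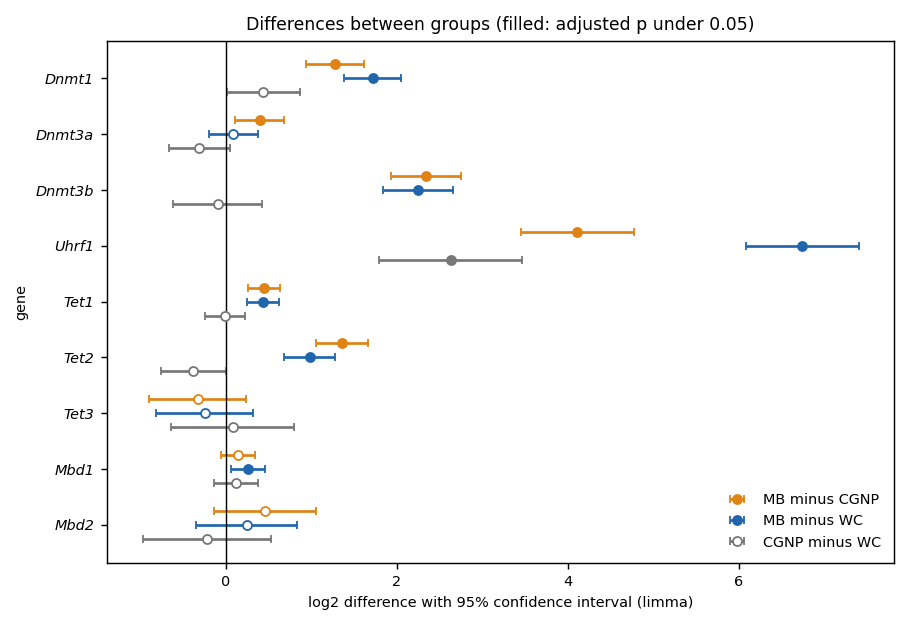
Log2 difference (horizontal axis) of each gene for MB minus CGNP, MB minus WC and CGNP minus WC, with the 95% confidence interval from limma. Filled points passed an adjusted p under 0.05. Uhrf1 is the only gene with all 3 points filled, and the interval of Dnmt3a against WC (-0.19 to 0.37) spans 0.

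Of the Tet dioxygenases, Tet2 showed the largest averaged difference in each comparison of the MBs. Its log2 level was 8.59 to 9.11 in the MBs (median 8.89), 7.50 in both CGNP samples, and 7.98 and 7.78 in WC. The MBs were above all normal samples, and CGNP was below WC. The log2 difference was 1.36 ± 0.13 (SE) against CGNP, a 2.57-fold higher signal (adjusted p = 2.92e-05), and 0.98 ± 0.13 against WC, a 1.98-fold higher signal (adjusted p = 0.00017). The difference of -0.38 between CGNP and WC did not pass (adjusted p = 0.139), although one of the probe sets, 1438781_at, did so alone (-0.86, adjusted p = 0.0195) and the other, 1455300_at, did not (0.11, adjusted p = 0.734).

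Tet1 had an averaged log2 level of 5.55 to 5.87 in the MBs (median 5.73), 5.30 and 5.27 in CGNP, and 5.43 and 5.16 in WC, with differences of 0.45 against CGNP (adjusted p = 0.00186) and 0.44 against WC (adjusted p = 0.00154). Its probe sets differed widely in signal. With 1455425_at the MBs were at 9.46 to 9.97, CGNP at 8.59 and 8.48, and WC at 9.18 and 8.65, a difference of 1.23 against CGNP (adjusted p = 0.000119) and of 0.86 against WC (adjusted p = 0.000907). With 1419897_at the MBs were at 3.14 to 3.25 and each of the 4 normal samples at 3.17. The probe set 1429448_s_at, which was not averaged, was at 7.02 to 7.44 in the MBs, 5.37 and 4.87 in CGNP, and 5.22 and 4.77 in WC, with a difference of 2.21 against the normal samples (adjusted p = 3.48e-07). The averaged value of 0.45 therefore includes probe sets with nearly constant signal, and differences of single probe sets against the normal samples ranged between 0.01 and 2.21. Against WC, the averaged difference was called by the methods' t-test with equal variances and not by that with unequal variances (adjusted p = 0.271).

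Tet3 was represented by a single probe set with low signal. Its log2 level was 3.14 to 4.32 in the MBs (median 4.04), 4.54 and 4.07 in CGNP, and 4.22 in both WC samples. The groups overlapped, and the difference of -0.29 against the normal samples (95% interval -0.70 to 0.13) did not pass (adjusted p = 0.283). MB_630 was the lowest sample at 3.14, and the other MBs were between 4.02 and 4.32.

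**Figure D3:**
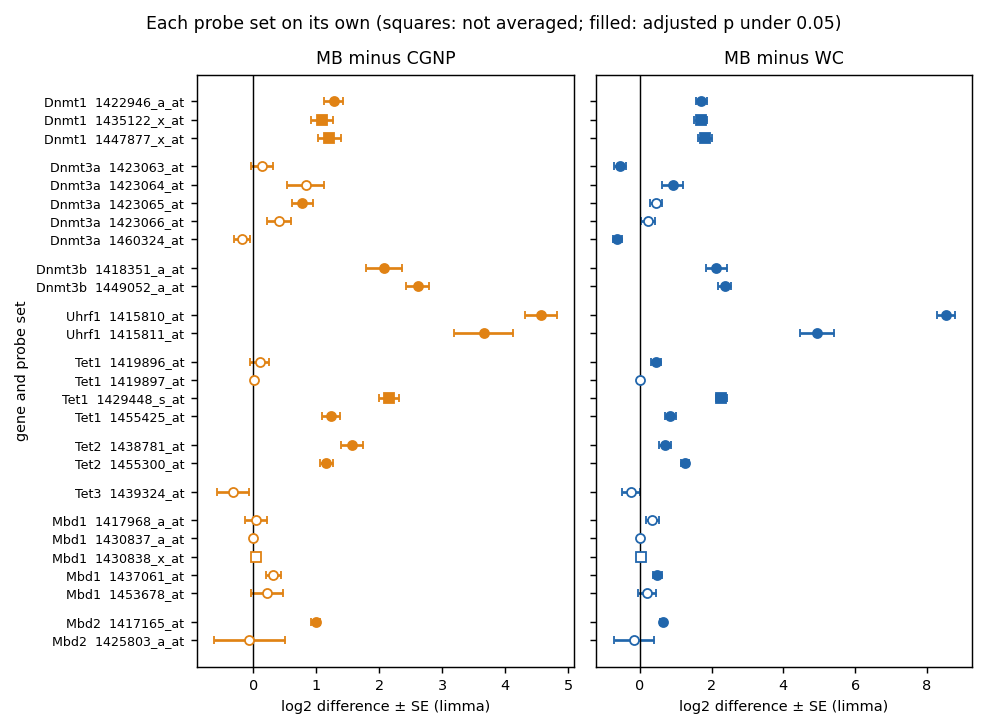
Log2 difference with its SE (horizontal axis) for each of the 26 probe sets, for MB minus CGNP and MB minus WC. Squares were not averaged into the gene value, and filled symbols passed an adjusted p under 0.05 over all probe sets. The Dnmt3a probe sets lie on both sides of 0 against WC (-0.62 to 0.93), while both Dnmt3b and both Uhrf1 probe sets lie to the right of 0.

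The readers showed small differences. Mbd1 had a log2 level of 5.44 to 5.82 in the MBs (median 5.58), 5.52 and 5.43 in CGNP, and 5.35 and 5.36 in WC. It was higher in the MBs than in the normal samples by 0.20 (adjusted p = 0.0439) and than in WC by 0.26 (adjusted p = 0.0385), but the difference of 0.14 against CGNP did not pass (adjusted p = 0.275). The call against the normal samples was lost in 14 of 22 alternative analyses (those added later not counted), among them those without MB_706 (adjusted p = 0.0694), MB_1187 (0.0629), MB_1197 (0.0554), MB_1207 (0.0524) or MB_1224 (0.0743), without CGNP_2705 (0.0729) and without either WC sample (0.119 and 0.114). Of the 4 averaged probe sets, 1430837_a_at was at the floor in every sample and 1453678_at was at 2.27 to 3.28. The 2 with higher signal, 1417968_a_at and 1437061_at, differed from the normal samples by 0.20 (adjusted p = 0.36) and 0.40 (adjusted p = 0.006).

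Mbd2, the reader of the NuRD complex, had a log2 level of 6.21 to 7.41 in the MBs (median 7.23), 6.68 in both CGNP samples, and 6.93 and 6.87 in WC. The MBs other than MB_706 were above all normal samples, whereas MB_706 (6.21) was below them. The difference of 0.35 against the normal samples did not pass (adjusted p = 0.207), and without MB_706 it was 0.49 (adjusted p = 0.000449). Without this tumor the differences against CGNP (0.60, adjusted p = 0.000264) and WC (0.38, adjusted p = 0.00276) passed as well. The probe sets differed in this respect. With 1417165_at, MB_706 was at 8.43, within the 8.14 to 8.43 of all MBs, and the difference against the normal samples was 0.82 (adjusted p = 3.07e-05). With 1425803_a_at, MB_706 was at 4.00, the other MBs at 6.12 to 6.46 and the normal samples at 5.98 to 6.20. MB_706 was also the array with the high 3' minus 5' signal given above, and the part of RNA integrity in its Mbd2 level was not tested.

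Within the MBs, the spread of the 9 genes ranged from an SD of 0.10 (Tet1) to 0.43 (Uhrf1) on the log2 scale, compared with a median SD of 0.27 over the 8289 genes with a mean log2 level above 5 in the MBs. MB_630 had the lowest level for Dnmt1, Uhrf1, Tet1, Tet3 and Mbd1. Of the 36 pairs among the 9 genes, 4 correlated across the 8 MBs at an unadjusted p under 0.05 (exact permutation test, two-sided) and 0 after adjustment over the pairs, by Pearson's r or Spearman's rho. The highest Pearson's r was 0.81 for Dnmt1 and Tet3 (exact permutation p = 0.0262, adjusted p = 0.363), with rho = 0.31 (p = 0.462, exact permutation) and r = 0.64 without the 2 tumors farthest from the median. With Mki67, a marker of dividing cells, Dnmt1 had r = 0.81 (exact permutation p = 0.0168, adjusted p = 0.151 over 9 genes) and rho = 0.64 (p = 0.0962, exact permutation), and r was 0.38 without the 2 tumors farthest from the median. Uhrf1 had r = 0.68 (exact permutation p = 0.0604, adjusted p = 0.227) and rho = 0.67 (p = 0.0831, exact permutation) with Mki67. None of the 9 relations with Mki67 passed after adjustment.

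The genes whose level over the 12 arrays was most similar to each member were also determined, as a description, since the 12 points share the group differences. Predicted gene models were left out, as were genes whose SD was below a minimum set from the SD of the member. For Uhrf1 these were Oip5 (Pearson's r = 0.998), Plk1 (0.996) and Ckap2 (0.995), the first of which takes part in centromere assembly and the second in mitotic entry. For Dnmt1 they were Ints7 (0.994), Espl1 (0.994), the protease that separates sister chromatids, and Efs (0.993). Dnmt3b was most similar to Ifit2 (0.990), Prps1l3 (0.990) and Pola1 (0.987), a subunit of DNA polymerase alpha. Tet2 was most similar to Atr (0.987), a kinase of the replication stress response, Bcor (0.983) and Brd8 (0.982), and Tet1 to Trip12 (0.974), Mdk (0.969) and Cenpm (0.964). The highest values were lower for Mbd1 (Tsen54, 0.955), Mbd2 (Nudc, 0.951), Dnmt3a (Rnf168, 0.885) and Tet3 (Zfp574, 0.851).

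Genes that work with these enzymes were then considered by list. Of 8 maintenance partners, 6 were higher in the MBs than in the normal samples, 0 were lower and 2 did not pass (limma, median log2 difference 2.52, also 0 lower at an unadjusted p under 0.05 and by both forms of the methods' t-test). The count was the same against CGNP (18.7% of all genes higher, 18.6% lower) and against WC (22.2% higher, 21.8% lower). Against the normal samples as one group, 20% of all genes were higher and 16.4% lower. Cdca7l (log2 difference 5.75, adjusted p = 5.33e-08) and Cdca7 (at least 5.70, adjusted p = 3.69e-08) rose most, and Cdca7 lay at the floor in one WC sample, so these are not ranked. Cdca7 activates the chromatin remodeler Hells, which is needed for normal methylation of repeats. Cdca7 was at a mean log2 level of 8.46 in the MBs, 3.26 in CGNP and 2.27 in WC. Hells, chosen after its values were seen, was at 8.93, 5.08 and 3.45 in the same order. Between CGNP and WC, 5 of the 8 were higher in CGNP, compared with 14.9% of all genes. Of the other writers, Trdmt1, a tRNA methyltransferase, was higher in the MBs (0.81, adjusted p = 7.86e-05), and Dnmt3l, a cofactor of de novo methylation, was at the floor in the normal samples and at a mean of 2.20 in the MBs.

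All 17 measured genes of the cell division list were higher in the MBs in each comparison with normal samples. The median log2 difference was 5.10 against the normal samples (20% of all genes higher) and 3.41 against CGNP (18.7%). Mki67 was at a mean log2 level of 12.31 in the MBs, 9.02 in CGNP and 2.29 in WC, and Mcm6, a subunit of the replicative helicase, at 12.20, 7.33 and 4.11. The mean level of the list was 8.89 to 9.46 in the MBs, 5.63 to 5.75 in CGNP and 3.34 to 3.49 in WC. The group means of Uhrf1 and Dnmt1 had the same order, and the part of cell division in their levels was not tested. For Dnmt3b the means of the normal groups were 4.09 in CGNP and 4.18 in WC, and for Tet2 they were 7.50 in CGNP and 7.88 in WC.

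Of 8 measured demethylation partners, 2 were higher in the MBs than in the normal samples, 1 was lower and 5 did not pass. Over all genes, 20% were higher and 16.4% lower. Idh2, which produces the 2-oxoglutarate that Tet enzymes use, was higher by 1.39 (adjusted p = 7.33e-05), and the stress-response gene Gadd45a by 1.19 (adjusted p = 0.0215), while Gadd45b fell by 1.15 (adjusted p = 6.61e-05). The counts depended on the normal group used, with 1 gene higher and 2 lower in MBs against CGNP (18.7% and 18.6% of all genes). Against WC, 3 were higher and 1 lower (22.2% and 21.8% of all genes). Directly between CGNP and WC, 1 was higher and 0 were lower by limma (14.9% and 13.6% of all genes). At an unadjusted p under 0.05, 1 was lower there. Gadd45a was not called against CGNP (0.98, adjusted p = 0.135). Idh1, a cytosolic enzyme that also makes 2-oxoglutarate and was chosen after its values were seen, was lower in the MBs than in CGNP (-1.31, adjusted p = 0.000377) and higher than in WC (1.86, adjusted p = 2.38e-05). Of 6 other measured genes listed as methyl-CpG readers or their relatives, 2 were higher and 2 lower than in the normal samples, and 2 did not pass. Over all genes, 20% were higher and 16.4% lower. The 2 that did not pass were Mbd3 and Mbd6, for which binding to methylated CpGs is not assumed here. Mbd4, a DNA glycosylase that repairs mismatches at CpGs, was higher by 2.07 (adjusted p = 0.000387), with mean log2 levels of 7.31 in the MBs, 4.49 in CGNP and 5.99 in WC, and the zinc finger gene Zbtb33 (Kaiso) by 0.35 (adjusted p = 0.00729). Its relatives Zbtb4 (-1.49, adjusted p = 0.00469) and Zbtb38 (-0.96, adjusted p = 0.00561) were lower. Against CGNP, Zbtb4 was also called (-0.79, adjusted p = 0.0479). Zbtb38 (-0.53, adjusted p = 0.0671) and Zbtb33 (0.16, adjusted p = 0.063) were called against WC but not against CGNP. Of the 7 measured binders of unmethylated CpGs (CXXC proteins), 4 were higher (20% of all genes) and 3 did not pass. The rise was led by the histone methyltransferase Kmt2a (0.95, adjusted p = 2.58e-05) and by Cxxc4 (0.92, adjusted p = 0.047). Cxxc4 was higher than in CGNP (1.69, adjusted p = 8.82e-05) but was not called against WC (0.15, adjusted p = 0.679), with mean log2 levels of 5.11 in the MBs, 3.42 in CGNP and 4.96 in WC.

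Of 14 measured corepressors recruited by the readers, 12 were higher in the MBs than in the normal samples, 1 was lower and 1 did not pass, with a median log2 difference of 0.81. Over all genes, 20% were higher and 16.4% lower. Against CGNP, 9 of the 14 were higher and 0 were lower by limma (18.7% and 18.6% of all genes). The methods' t-test with unequal variances gave 1 lower against CGNP. Relative to the normal samples, Sin3a (2.09, adjusted p = 0.000104) and the deacetylase Hdac1 (1.60, adjusted p = 5.49e-06) rose most. The NuRD helicase Chd3 was lower (-0.81, adjusted p = 0.0188) but was not called against CGNP (-0.68, adjusted p = 0.122). Of 7 measured genes listed for the supply or recycling of S-adenosylmethionine, the methyl donor of the Dnmt enzymes, 5 were higher and 2 were lower (20% and 16.4% of all genes). Shmt1 (3.74, adjusted p = 9.58e-06) and Shmt2 (2.58, adjusted p = 0.000334), which feed one-carbon units into the cycle, rose most. Ahcyl1 (-1.26, adjusted p = 0.0339) and Mat2b (-0.93, adjusted p = 0.000113) were lower. Against CGNP, Ahcyl1 was not called (-0.44, adjusted p = 0.444). Ahcyl1 was listed as a relative of Ahcy, and a part of it in this cycle is not assumed here. Ahcy itself, named after its values were seen, was higher by 2.16 (limma, adjusted p = 5.22e-07).

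**Figure D4:**
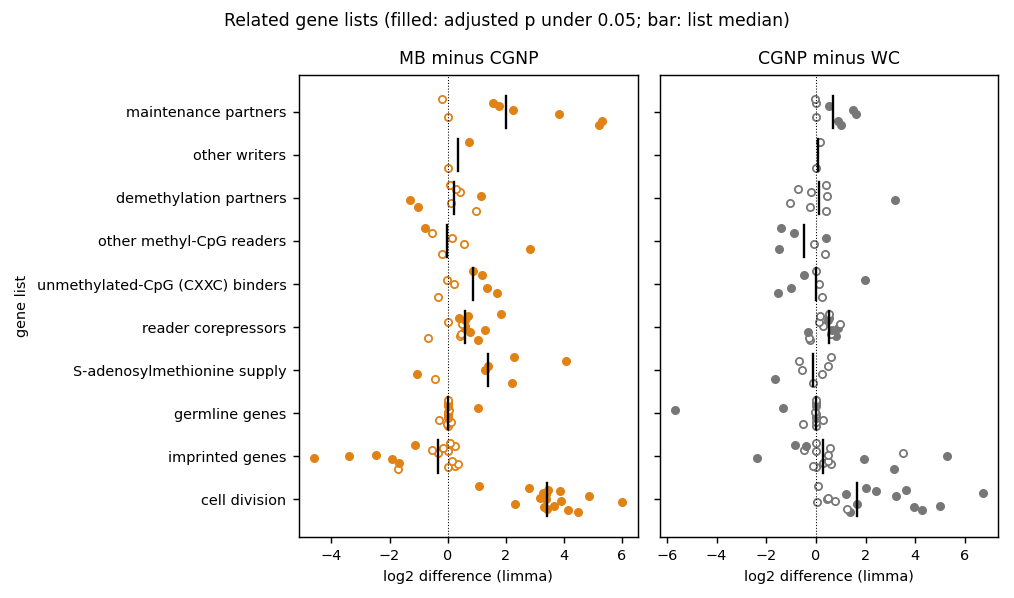
Log2 difference (horizontal axis) of every measured gene in 10 related lists, for MB minus CGNP and for CGNP minus WC. Filled points passed an adjusted p under 0.05, and the vertical bar is the median of a list. All 17 cell division genes and 6 of 8 maintenance partners lie to the right with filled points for MB minus CGNP, compared with 18.7% of all genes.

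The arrays measured no DNA methylation. Genes whose expression has been linked to it were examined at the RNA level only, which does not show their methylation. Of 14 genes listed as germline genes silenced by promoter methylation in somatic cells, 0 were called in the MBs against the normal samples by limma (1 lower at an unadjusted p under 0.05, and 0 by both forms of the methods' t-test). Over all genes, 20% were higher and 16.4% lower. Most of the 14 were at or near the floor in every group. Those clearly above the floor in at least one group, named after their values were seen, were Sycp1, Sycp3 and Brdt. For these genes, silencing in the somatic samples used here is not assumed. Sycp1 and Sycp3 encode components of the synaptonemal complex of meiosis, and Brdt a bromodomain protein of the testis. Sycp3 was higher in the MBs than in CGNP by 1.03 (adjusted p = 0.0018), with mean log2 levels of 3.55 in the MBs, 2.52 in CGNP and 3.83 in WC. Against WC, Sycp1 (adjusted p = 8.48e-12) and Brdt (-0.55, adjusted p = 0.0287) were lower in the MBs. Sycp1 was at a mean of 2.25 in the MBs, 2.20 in CGNP and 7.88 in WC, and Brdt at 3.98, 3.99 and 4.53. The median of Sycp1 in the MBs was 2.20, next to the floor. Its fall is thus a lower limit, and the spread behind its p-value is compressed. Of 17 measured imprinted genes, 0 were higher in the MBs than in the normal samples by limma (0 also at an unadjusted p under 0.05 and by both forms of the methods' t-test), 5 were lower and 12 did not pass. Over all genes, 20% were higher and 16.4% lower. Against CGNP 0 were higher (1 at an unadjusted p under 0.05, and 0 by both forms of the methods' t-test) and 6 were lower, and against WC 2 were higher and 5 lower. The shares over all genes were 18.7% higher and 18.6% lower against CGNP, and 22.2% and 21.8% against WC. The 2 genes higher against WC, chosen after their values were seen, were Mest (1.88, adjusted p = 0.0107), with mean log2 levels of 8.14 in the MBs, 11.52 in CGNP and 6.25 in WC, and Nnat (3.19, adjusted p = 0.0212), at 9.92, 10.26 and 6.73. Against the normal samples, the noncoding RNA Meg3 fell most (-5.77, adjusted p = 3.57e-05), with mean log2 levels of 3.87 in the MBs, 8.46 in CGNP and 10.82 in WC, followed by Ndn (-2.20, adjusted p = 0.000603). Neurons express both of these genes, and the part of the neuronal share of the samples in their levels was not tested. The normal groups also differed from each other. In CGNP against WC, 0 germline genes were higher and 2 lower, and 3 imprinted genes were higher and 3 lower (limma, adjusted p under 0.05). The part of methylation or of cell makeup in the levels of any of these genes was not tested.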

How the data were processed

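Gene expression had been measured by the authors on Affymetrix mouse expression arrays, and the deposited log2 values were made with GCRMA in the R library affy. Per the study's methods, gene values were then averaged over highly specific probes, but the deposited table holds probe sets, so averaging to genes was done here. Of 45101 probe sets, 64 are array controls, 34945 are paired with 1 gene in the platform annotation, 932 with several and 9160 with none. Levels near the floor of 2.2014 have no order. The number of arrays limits the precision, and p-values measure the spread between these samples, which may be in part technical. The 9 genes and the lists were chosen with earlier results of these data known.

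Differences were tested with limma 3.58.1 (R 4.3.3, lmFit followed by eBayes), and two-sided p-values were adjusted by Benjamini-Hochberg over 18193 genes, with a threshold of 0.05. MBs against the 4 normal samples came from a 2-group fit, the other comparisons from a 3-group fit over the 12 arrays. The p-values of CGNP against WC therefore rest also on the spread among the MBs. The exact permutation test of single values cannot go below 0.00202 for 8 against 4 samples, 0.0222 for 8 against 2, and 0.333 for 2 against 2, for which it was not run. The study names an unpaired t-test for expression in a figure legend, to which its methods refer, without stating the variance assumption. It is called the methods' t-test here. It was run across all genes with unequal variances and, added after seeing the data, with equal variances. Named genes were the members, the 2 list genes with the largest rise and fall, and the 3 most similar genes among those kept by the filters given above. Of 173 listed genes, 16 were not analysed here. On simulated data with 18193 genes, shifts of 1 and 2 log2 units were recovered in 69% and 91% (MB against normal brain), 54% and 87% (CGNP), 48% and 85% (WC), and 40% and 73% (CGNP against WC). There only a small set of genes with a mean log2 level above 5 was shifted, and no other gene differed between groups. In the real data many genes differ and some members have lower signal, so these shares are not the power for the members. No sequence is printed for Mbd1 and Mbd2.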

Additional observations from a re-analysis of the deposited data

Results flagged for a closer look

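Within the 8 MBs, each gene and each of its probe sets was examined for a single tumor far from the others, and 5 of the 35 sets of values contained such a tumor. Chance gives about 1 in 20, but a gene and its probe sets share their values, and the 5 come from 3 combinations of a gene and a tumor. Tet3 was at 3.14 in MB_630, and the other 7 MBs lay between 4.02 and 4.32; its single probe set 1439324_at is the same measurement. Mbd2 was at 6.21 in MB_706, with the other MBs between 7.16 and 7.41, and its probe set 1425803_a_at was at 4.00 in this tumor, with the other MBs between 6.12 and 6.46. The Mbd1 probe set 1417968_a_at was at 9.60 in MB_706, above the other MBs at 8.81 to 9.18. MB_706 is the array with the 3' minus 5' control signal of 2.93, and the part of this in its Mbd1 and Mbd2 levels was not tested.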

How the results depend on the processing

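The rises of Dnmt1, Uhrf1 and Tet2 over each normal group kept their direction and their call under every alternative (other probe set summaries, normalizations and spread estimates, a filter on low signal, both forms of the methods' t-test, and leaving out each sample). For Dnmt3b and Tet1 this held except against WC with the unequal-variance t-test and, for Tet1, with 1419896_at (against normal brain and CGNP) or 1419897_at alone. Without 1 sample, 5 to 6 genes were higher against normal brain, 5 to 7 against CGNP, 5 to 6 against WC, and 1 to 2 in CGNP against WC, where 2 was reached without MB_630. Leaving out an MB changes no difference between CGNP and WC, only the estimated spread and the adjustment. In that comparison the unequal-variance t-test gave 0 higher genes after adjustment, with Uhrf1 at an adjusted p of 0.156, and 2 without adjustment. The equal-variance t-test, added after seeing the data, gave 1 higher after adjustment (Uhrf1, adjusted p = 0.0288), and 2 higher and 1 lower (Mbd2) without adjustment. With the probe set of highest signal, 1 gene was lower in MBs against WC (Dnmt3a, -0.55) and 2 were lower in CGNP against WC (Dnmt3a and Mbd2). Fitting each probe set alone, chosen after seeing the data, reversed Dnmt3a with 1460324_at against normal brain (-0.40), CGNP (-0.18) and WC (-0.62), and with 1423063_at against WC (-0.55); the cause was not tested. The Dnmt3a call against CGNP was lost in 7 of 21 alternatives, among them without CGNP_2698 (adjusted p = 0.361) and without MB_1197 (0.053). The Mbd1 call against WC was lost in 12 of 21, and with the equal-variance t-test (adjusted p = 0.0538). Over all genes, the adjusted unequal-variance t-test called 1797 genes lower in MBs against normal brain (2979 with limma). In CGNP against WC it called 1 higher and 2 lower, the equal-variance t-test 1477 and 1392, and limma 2703 and 2477. With the level filter Tet3 was not tested. Where a CGNP or WC sample was left out, the remaining one was assumed to vary like the other groups. No paired analysis was possible because the groups share no replicate numbers in the labels. Groups of 2 arrays and signal near the floor (Tet3, parts of Mbd1, Tet1 and Uhrf1) limit what these data can show.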
